A study of Macaca mulatta with 33 samples.

Results

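THY1, LRRC15, PDGFRA, DCN and LUM are 5 genes used as markers of stromal fibroblasts, and their levels were followed in whole corpora lutea of the rhesus macaque. The corpus luteum is the gland that forms from the ovulated follicle and makes progesterone. Its steroid-making cells lie among blood vessels, immune cells and connective tissue. A probe set (a group of array probes that reports on a transcript) counted as a member when the array annotation gave it 1 of these symbols and no other. That gave 4 of the 14132 genes with a symbol of their own on the array, and 12 of 52766 probe sets: 2 for THY1, 2 for LRRC15, 5 for DCN and 3 for LUM. PDGFRA, the alpha receptor for platelet-derived growth factor, had 0 and was not analysed here. Of the 12, 10 passed the filter on dim probe sets (above 6.19, the median of all values, on at least 4 arrays). The brightest probe set that passed stands for its gene.

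Fibroblasts lay down the collagen and proteoglycan scaffold of a tissue. THY1 (CD90) is a surface protein anchored by a lipid tail and found on fibroblasts and some other cells. LRRC15 is a membrane protein with leucine-rich repeats that marks a subset of fibroblasts in scarred and tumour tissue and is inducible by TGF-beta. DCN (decorin) and LUM (lumican) are secreted small leucine-rich proteoglycans that bind collagen fibrils, and decorin also binds TGF-beta. In the RefSeq annotation of the macaque (assembly T2T-MMU8v2.0) LUM and DCN are direct neighbours on chromosome 11.

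RNA of adult females was hybridised to 33 Affymetrix Rhesus Genome arrays. The baseline was 8 samples of untreated tissue taken on luteal day 10. Human chorionic gonadotropin (hCG), the hormone of early pregnancy, was given in rising doses from luteal day 9 to imitate that stage in animals that were not described as pregnant. It was given alone, with trilostane (TRL, an inhibitor of 3-beta-hydroxysteroid dehydrogenase, which makes progesterone), or with trilostane and the synthetic progestin R5020. Tissue was taken on day 10, after 1 day of hCG, or on day 15, after 6 days, with 4 samples in each of these 6 groups. All groups other than the untreated one received hCG, and no trilostane or R5020 group was without it. There was no untreated group of day 15, so 5 more luteal days and 5 more days of hCG cannot be told apart. The labels do not say that each sample came from its own animal, so each p-value reflects only how far these samples spread.

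The tissue carried the markers of luteal cells: STAR, which brings cholesterol to the steroid enzymes, stood at 14.48 in the untreated group and 14.78 after 6 days of hCG (log2 intensity, array set effect removed). The array names carry a set number (1, 2 or 3) whose meaning is not stated. Set 1 holds 4 untreated samples, every hCG-treated day 10 sample that had no R5020, and 4 of the 5 arrays of day 15 hCG. Set 2 holds the other 4 untreated samples, all R5020 samples of day 10 and 3 samples each of the trilostane and R5020 groups of day 15, and set 3 holds 1 array of each day 15 group. Some array titles also end in the word reanalysis, whose meaning is not stated either. They are the 4 untreated arrays of set 1, all arrays of day 10 hCG alone and day 15 hCG replicates 1 to 4. No array with trilostane or R5020 carries this title word, and the fit holds no term for it. On day 15, hCG replicates 3 and 5 share a sample number in the labels and are nearly alike (SD of their differences over probe sets 0.201, against a median of 0.476 for the 528 pairs of arrays), so they were averaged and counted as 1 sample. The day 15 arrays of trilostane replicate 4 and R5020 replicate 4, from different groups, are more alike still (SD 0.192). The titles of both carry the number 5. Whether these 2 arrays hold the same RNA, or carry a wrong label, is not known, and all values of the trilostane and R5020 groups of day 15 rest in part on them. Values without the 3 arrays of set 3, which include both, are given beside a part of the day 15 results. The other values, among them the group means and the correlations over all samples, are given with these arrays only.

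Over the 7 groups, THY1 and LRRC15 varied and DCN and LUM did not pass the test. The moderated F test of limma gave an adjusted p of 0.0042 for THY1, 0.00026 for LRRC15, 0.096 for DCN and 0.59 for LUM, and 14.9% of the 28867 probe sets tested passed. Without set 3 these were 0.0067, 0.00023, 0.065 and 0.64. Both genes that passed were lowest in the day 15 groups. Changes below are log2 differences ± SE from a single fit with array set as a term. An adjusted p is Benjamini-Hochberg over all probe sets tested, and "called" means adjusted p under 0.05.

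**Figure D1:**
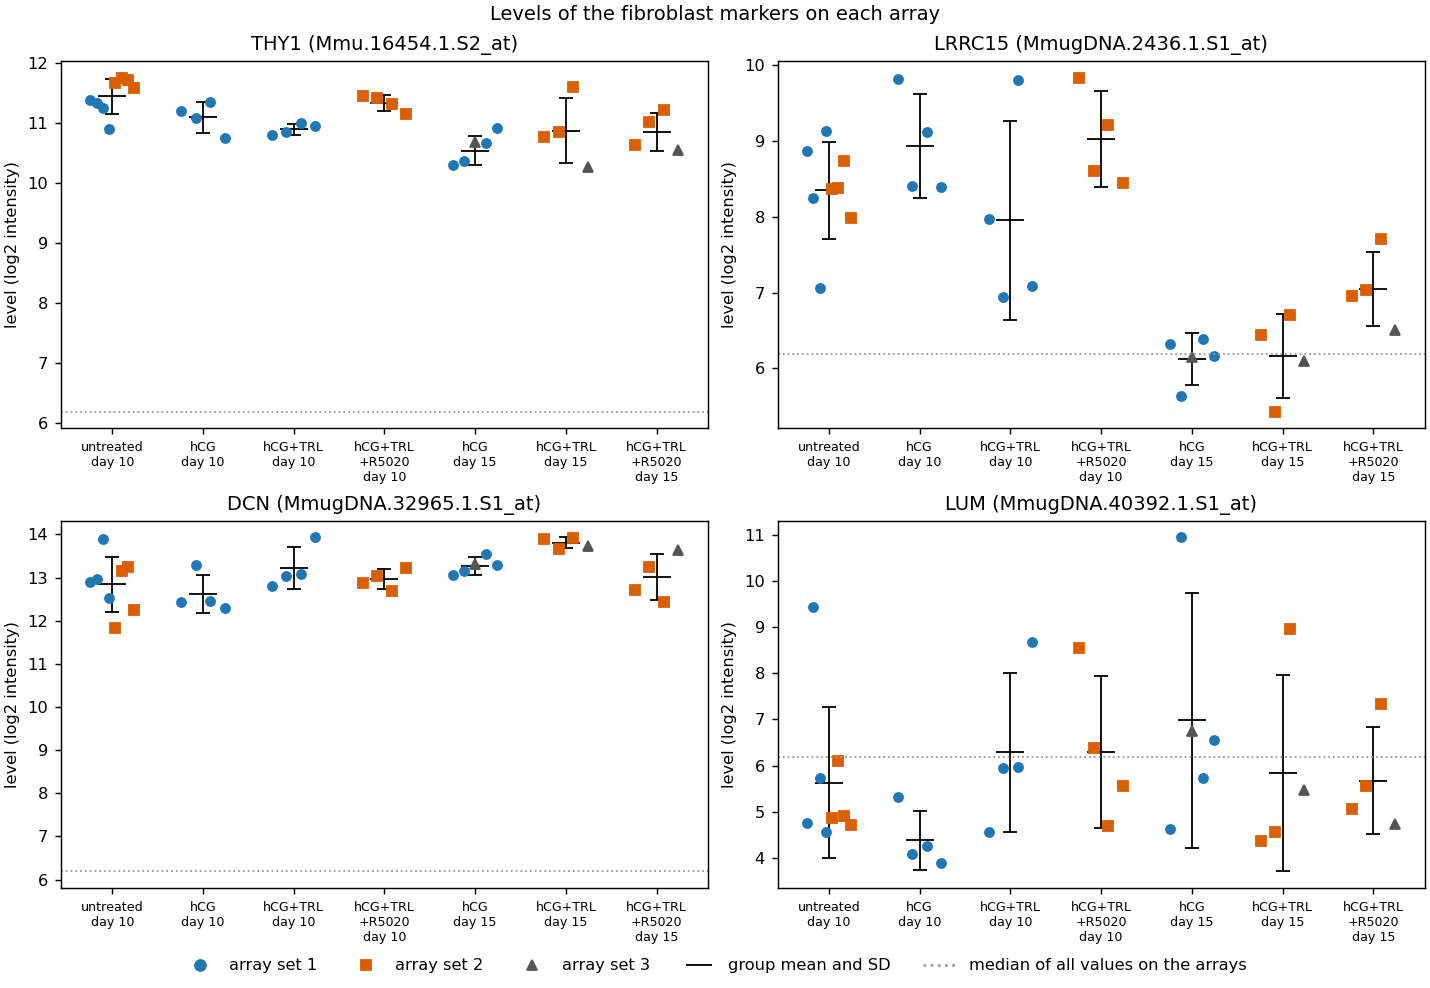
Log2 intensity of the brightest probe set of THY1, LRRC15, DCN and LUM on each of the 33 arrays, by treatment group; symbols mark the array set, bars the group mean and SD (day 15 hCG replicates 3 and 5 averaged), the dotted line the median of all values (6.19). LRRC15 lies between 5.43 and 7.7 in the day 15 groups and between 6.94 and 9.83 in the day 10 groups, and LUM is high in single samples of several groups.

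LRRC15 was lower after 6 days of hCG than in either day 10 comparison group. In the 8 untreated samples its level ran from 7.06 through a median of 8.37 to 9.13. After 1 day of hCG the samples stood at 9.82, 8.41, 9.11 and 8.39. After 6 days of hCG replicates 1, 2 and 4 stood at 6.32, 5.64 and 6.39, and the arrays of replicates 3 and 5 at 6.15 and 6.17. The day 15 samples all lay under the lowest untreated sample and under every day 10 hCG sample. LRRC15 fell by 2.15 ± 0.46 against untreated tissue (4.43-fold, adjusted p 0.0057) and by 2.77 ± 0.49 against 1 day of hCG (6.81-fold, adjusted p 9e-04). After 1 day of hCG the difference from untreated was 0.62 ± 0.48 (adjusted p 0.5). Within array set 1 alone the falls were -2.2 (adjusted p 0.041) and -2.8 (adjusted p 0.01), and both calls held under every alternative run and with each sample of the 2 groups left out in turn. The day 15 mean, 6.16, lies under the median of all values, and the values used hold no detection calls, so these folds rest on a level that may be near the background of the probes.

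THY1 moved the same way by less. Untreated samples ran from 10.89 through a median of 11.48 to 11.75, and the 4 of set 2 (11.66, 11.75, 11.72 and 11.58) lay above the 4 of set 1 (11.38, 11.33, 11.24 and 10.89). After 1 day of hCG THY1 stood at 11.19, 11.08, 11.35 and 10.75. After 6 days it stood at 10.3, 10.37 and 10.67 in replicates 1, 2 and 4, and at 10.68 and 10.92 on the arrays of replicates 3 and 5. Day 15 hCG did not overlap the untreated samples once the set effect was removed (10.3 to 10.8 against 10.89 to 11.38), and it overlapped the 1-day samples by 1 sample of each group. THY1 fell by 0.64 ± 0.15 against untreated tissue (1.56-fold, adjusted p 0.012) and by 0.56 ± 0.16 against 1 day of hCG (1.47-fold, adjusted p 0.038). The first call held under every alternative and every left-out sample. The second was lost without the set term (adjusted p 0.12), within array set 1 (0.069), with no filter (0.06), without set 3 (0.058), with replicates 3 and 5 as 2 samples (0.056), with the mean of both THY1 probe sets (0.076), and without day 10 hCG replicate 1, 2 or 3 or day 15 hCG replicate 1 or 2.

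Against untreated tissue, THY1 and LRRC15 were thus 2 of the 4 measured genes called after 6 days of hCG, both lower, where 5.04% of all probe sets were called and 1.71% were called lower. Against 1 day of hCG the count was again 2 of 4, both lower, where 6.62% were called and 3.74% lower. Of all probe sets, 5.21% and 11.4% had groups that did not overlap in these 2 comparisons. The counts take 1 probe set per gene, while the shares take every probe set tested. The genes were also chosen with earlier results of these data known, so count and share do not form a test. The 2 comparisons share the day 15 hCG samples. No marker gene was called after 1 day of hCG against untreated tissue, where 4.68% of probe sets were. In whole tissue, fewer cells of a type and less RNA per cell cannot be told apart.

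The second probe set of each gene stayed on the same side. The dimmer THY1 probe set differed by -0.75 ± 0.23 from untreated tissue (adjusted p 0.062) and by -0.63 ± 0.25 from 1 day of hCG (adjusted p 0.14), and followed the brighter one over the 32 samples with r = 0.916. The first of these passed without the set term (-0.9, adjusted p 0.012), with quantile normalization (-0.83, 0.035) with replicate number as a block (-0.87, 0.024), and without untreated replicate 9 or the averaged sample of day 15 hCG replicates 3 and 5 (adjusted p 0.045 and 0.022). The second passed without day 10 hCG replicate 4 (-0.85, adjusted p 0.048). The dimmer LRRC15 probe set (MmugDNA.12265.1.S1_at) did not pass the filter. It ran from 4.87 to 6.35 over all arrays and averaged 5.75 ± 0.18 (SD, n = 8) in untreated tissue, 5.86 ± 0.37 (SD, n = 4) after 1 day and 5.44 ± 0.16 (SD, n = 4) after 6 days of hCG, with the set effect removed.

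**Figure D2:**
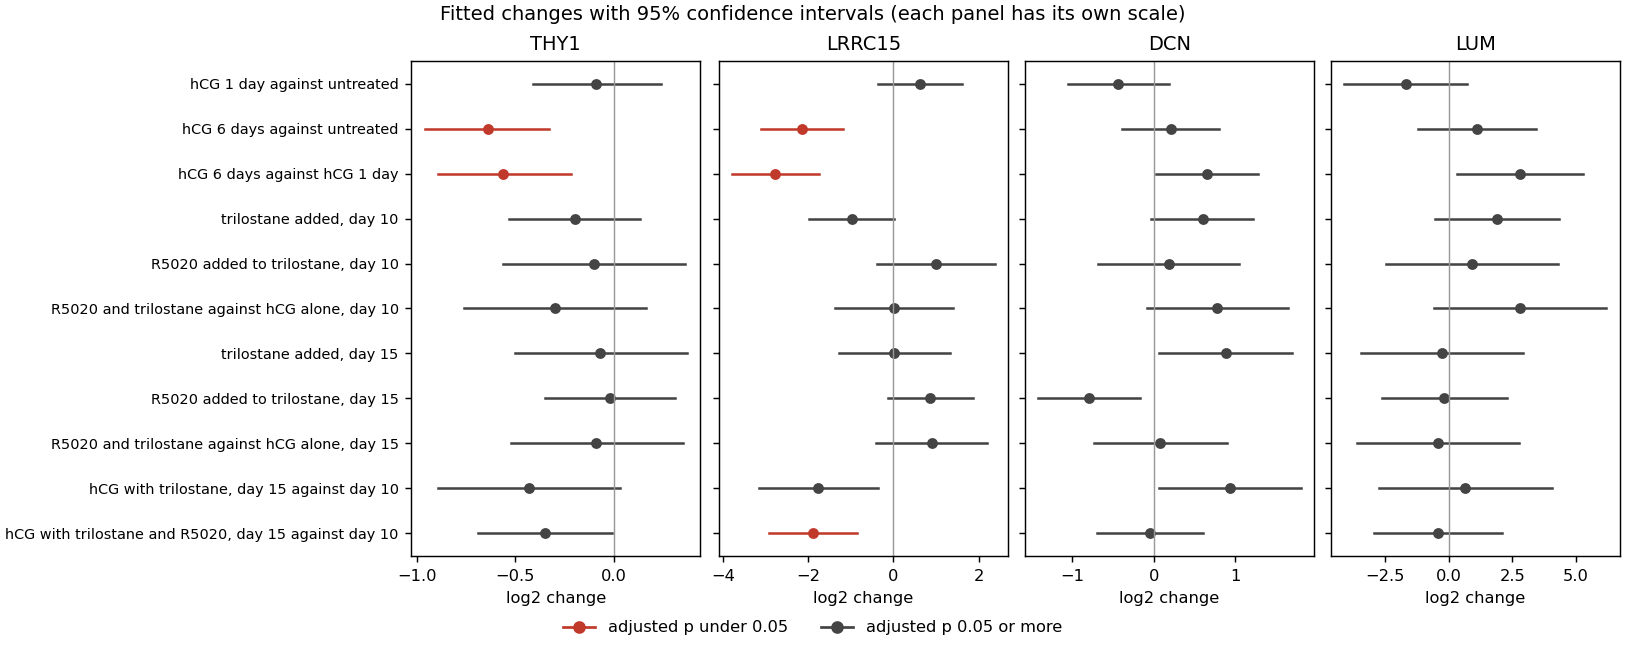
Fitted log2 change with its 95% confidence interval for the 4 genes in 11 comparisons (each panel has its own horizontal scale; red marks adjusted p under 0.05). The called changes are those of THY1 and LRRC15 after 6 days of hCG and of LRRC15 between the days with trilostane and R5020; LUM has the widest intervals.

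The day 15 groups given trilostane or R5020 were set against their own day 10 groups in 2 comparisons that were added after the values were seen. With trilostane, LRRC15 stood at 7.97, 6.94, 9.8 and 7.09 on day 10 and at 6.44, 5.43, 6.71 and 6.1 on day 15. The difference was -1.76 ± 0.68 (adjusted p 0.17), -1.8 (adjusted p 0.22) without set 3, and -1.78 (adjusted p 0.013) without the set term, since the day 10 arrays are all of set 1 and no day 15 array is. With R5020 as well, LRRC15 stood at 9.83, 8.6, 9.21 and 8.44 on day 10 and at 6.95, 7.03, 7.7 and 6.51 on day 15. It fell by 1.88 ± 0.51 (3.69-fold, adjusted p 0.044). This call was lost without set 3 (-1.79, adjusted p 0.099), with no filter (adjusted p 0.066) and in 6 of the 8 fits that leave out a sample of either group (adjusted p up to 0.17). The R5020 call makes 1 of 4 genes called, lower, where 2.4% of probe sets were called and 1.31% lower, and with trilostane 0 of 4 were called where 2.42% were. In neither comparison did the LRRC15 groups overlap after removal of the set effect, which held for 24.1% of probe sets with trilostane and 12.6% with R5020. THY1 differed by -0.43 ± 0.23 (adjusted p 0.33) and -0.35 ± 0.17 (adjusted p 0.31) in the same comparisons, or by -0.29 and -0.38 without set 3.

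Adding trilostane, or R5020 on top of it, moved no marker gene past the threshold on either day. On day 10 every array of hCG alone carries the title word and no trilostane array does. Trilostane and whatever the word stands for cannot be told apart there. Trilostane on day 10 gave 1 called probe set (0.00346%), and 0% were called for trilostane on day 15, for both R5020 comparisons on each day and for both differences of effects between the days. At an unadjusted p under 0.05, limma gave 3616 probe sets for trilostane on day 10, 1722 on day 15, and 871 and 1029 for R5020 added to trilostane on days 10 and 15. R5020 with trilostane against hCG alone gave 1697 and 686, and the differences between the days 939 for trilostane and 968 for R5020. LRRC15 differed by -0.98 ± 0.49 with trilostane on day 10 (95% interval -1.98 to 0.02) and by 0.99 ± 0.68 when R5020 was added (-0.39 to 2.38). On day 15 it differed by 0.02 ± 0.64 with trilostane (-1.28 to 1.33) and by 0.87 ± 0.49 with R5020 added (-0.13 to 1.88), or by 0.02 ± 0.73 and 1.03 ± 0.57 without set 3. After removal of the set effect the day 15 R5020 samples did not overlap those with trilostane alone or hCG alone, as for 3.52% and 4.96% of all probe sets. The change in the trilostane effect from day 10 to day 15 was 1 ± 0.8 (adjusted p 1), and that in the R5020 effect was -0.12 ± 0.83 (adjusted p 1). THY1 differed in the 6 comparisons of trilostane and R5020 by -0.3 to -0.02, and its sign in 4 of them turned without the set term.

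DCN is bright on every array and was highest with trilostane on day 15. Day 15 hCG gave 13.05, 13.16 and 13.54 in replicates 1, 2 and 4, and 13.32 and 13.3 on the arrays of replicates 3 and 5. With trilostane the 4 samples stood at 13.9, 13.67, 13.92 and 13.74. With R5020 added they stood at 12.71, 13.25, 12.44 and 13.64. The trilostane samples lay above all samples of both other day 15 groups. Neither difference was called: 0.88 ± 0.4 for trilostane (95% interval 0.06 to 1.69, adjusted p 0.81) and -0.8 ± 0.3 for R5020 added to it (-1.42 to -0.17, adjusted p 1). Groups did not overlap at 9.1% of probe sets for the first and 3.52% for the second. The first sets arrays mostly of set 1 against arrays of sets 2 and 3 and rests on the fitted set effect, which for DCN is -0.44 for set 2. It is 0.55 (adjusted p 0.71) without the set term and 1.02 (adjusted p 0.61) without set 3. The second is -1.03 (adjusted p 0.56) within array set 2 and -1.03 (adjusted p 0.6) without set 3. Both share the trilostane samples, so they are not independent. On day 10, trilostane differed from hCG alone by 0.6 ± 0.3 (adjusted p 0.42), and the title word separates the same groups.

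The 4 bright DCN probe sets gave the same picture, with r of 0.949 to 0.987 among them over the 32 samples. On day 15 their differences were 0.71 to 1.12 for trilostane and -0.97 to -0.49 for R5020 added to it. The fifth (MmugDNA.34727.1.S1_at) lay between 7.64 and 8.36 on all arrays, differed by 0.1 ± 0.15 and -0.09 ± 0.11, and followed the others with r of 0.214 to 0.288. After hCG alone DCN differed from untreated tissue by -0.44 ± 0.3 on day 10 and by 0.21 ± 0.29 on day 15. The untreated samples themselves ran from 11.82 through a median of 12.93 to 13.9.

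Macrophage markers were set beside DCN on day 15. Of the 13 markers, 11 were measured, and 2 of these lie under the median of all values. Their mean ran from 9.29 to 9.81 in day 15 hCG, from 9.73 to 10.51 with trilostane and from 9.45 to 9.98 with R5020 added, after removal of the set effect. With trilostane on day 15, 11 of 11 were above 0 with a median of 0.71, against -0.03 over all probe sets, and with R5020 added 1 of 11 was above 0 with a median of -0.51, against 0.01. None was called. Without set 3 these were 11 of 11 with a median of 1.31 and 0 of 11 with a median of -0.84, and again none was called. C1QC, a chain of the complement protein C1q, differed by 1.16 and -0.93, and CSF1R, the receptor for macrophage colony-stimulating factor, by 0.88 and -0.56. Over the 32 samples, each less its group mean, DCN and the macrophage mean gave Pearson's r = 0.489 (permutation p 0.0049, adjusted over 18 relations 0.081) and Spearman's rho = 0.473 (permutation p 0.0071, adjusted 0.064). Without the 2 samples farthest from the median DCN level, picked before group means were removed, r was 0.476. This choice need not drop the samples that weigh most on r. Over the 15 samples of array set 1 r was 0.235, and over the 14 of set 2 it was 0.756. The permutations shuffled all 32 values freely although group means had been removed, so all permutation p-values here are too small. The relation was not particular to DCN: THY1 and the macrophage mean gave r = 0.431 (permutation p 0.013, adjusted 0.081). LUM gave r = 0.231 and LRRC15 r = -0.0852. The part of macrophages in the DCN and THY1 values was not tested.

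**Figure D3:**
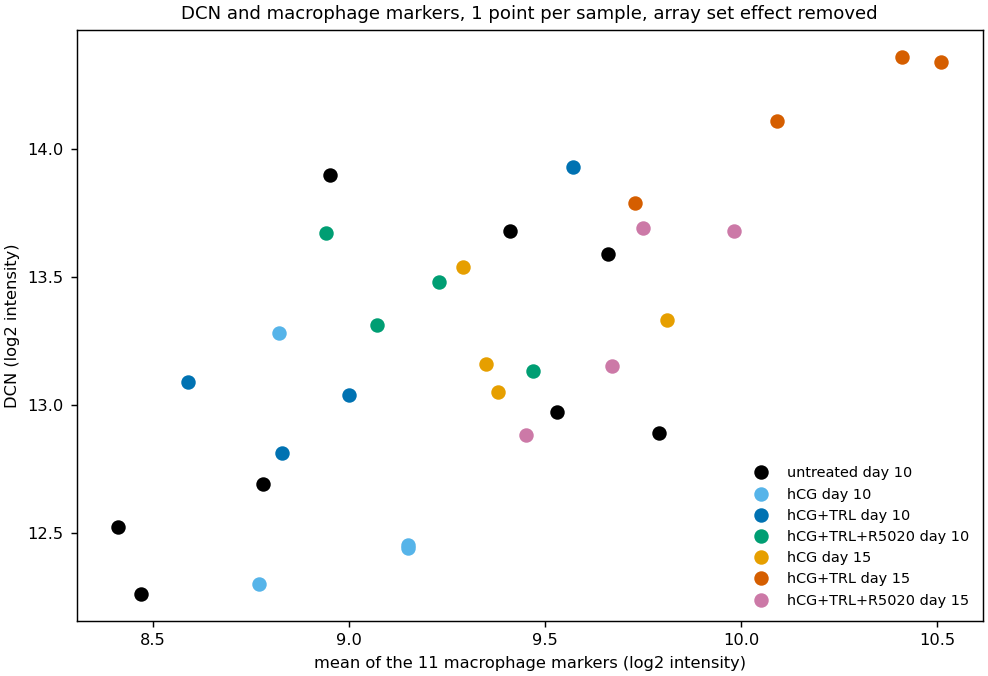
DCN (vertical axis) against the mean of 11 macrophage markers (horizontal axis), both log2 intensity with the array set effect removed, 1 point per sample, coloured by group. The day 15 trilostane samples lie at 13.79 or higher for DCN and from 9.73 to 10.51 for the macrophage mean.

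LUM differed between single samples more than between groups. It exceeded the median of all values on 9 of 33 arrays and ranged from 3.89 to 10.94. Its residual SD within groups, 1.8, is exceeded by that of 8 of the 28867 probe sets. High values came from single samples in several groups: untreated replicate 2 (9.44), day 10 trilostane replicate 4 (8.67), day 10 R5020 replicate 1 (8.54), day 15 hCG replicate 2 (10.94), day 15 trilostane replicate 3 (8.95) and day 15 R5020 replicate 3 (7.34). The other 7 untreated samples ran from 4.56 to 6.09, and after 1 day of hCG the 4 samples stood at 5.32, 4.08, 4.25 and 3.89, with none of them high. The arrays of day 15 hCG replicates 3 and 5 gave 6.74 and 6.55. The second probe set that passed followed the first with r = 0.988, and the third, which did not pass, with r = 0.831. No LUM difference was called: 6 days against 1 day of hCG gave 2.81 ± 1.21 (95% interval 0.33 to 5.29, adjusted p 0.17), and 6 days against untreated gave 1.11 ± 1.13, or -0.11 without day 15 hCG replicate 2.

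**Figure D4:**
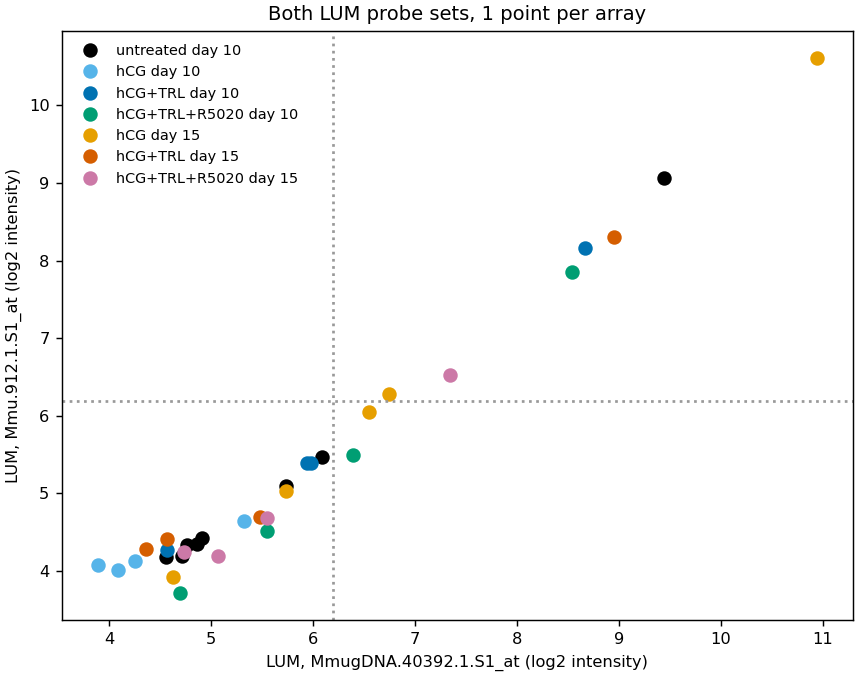
The brighter LUM probe set (horizontal axis) against the second (vertical axis), log2 intensity, 1 point per array, coloured by group; dotted lines mark the median of all values (6.19). Both rise together from about 4 to 10.94 and 10.61, and the highest points come from different groups.

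The order of the group means, after removal of the set effect, differed from gene to gene. For LRRC15 it ran from the day 10 R5020 group (8.95), day 10 hCG (8.93), untreated (8.31) and day 10 trilostane (7.95) to day 15 R5020 (7.06), day 15 trilostane (6.19) and day 15 hCG (6.16). Of the neighbours in that order, only the R5020 and trilostane groups of day 15 did not overlap. For THY1 it ran from untreated (11.18), day 10 hCG (11.09), day 10 trilostane (10.89) and day 10 R5020 (10.8) to day 15 hCG (10.53), day 15 trilostane (10.47) and day 15 R5020 (10.45), and all neighbours overlapped. For DCN it ran from day 15 trilostane (14.15), day 10 R5020 (13.4), day 15 R5020 (13.35), day 15 hCG (13.27) and day 10 trilostane (13.22) to untreated (13.06) and day 10 hCG (12.62), and the first pair alone did not overlap. For LUM it ran from day 10 R5020 and day 15 hCG (7.2 each), day 15 trilostane (6.94), day 15 R5020 (6.77), day 10 trilostane (6.29) and untreated (6.09) to day 10 hCG (4.39), with all neighbours overlapping.

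Over all 32 samples the 4 genes did not form a block within groups. With each sample less its group mean, THY1 and LUM gave Pearson's r = 0.454 (permutation p 0.0095, adjusted 0.081) and Spearman's rho = 0.537 (permutation p 0.0019, adjusted 0.035). Without the 2 samples farthest from the median THY1 level, picked before group means were removed, r was 0.423. This choice need not drop the samples that weigh most on r. In array set 1 r was 0.198, and in set 2 it was 0.83. THY1 and LRRC15, the genes that fell after 6 days of hCG, gave r = 0.29 and rho = 0.358 (permutation p 0.045, adjusted 0.2). With group means left in, their r was 0.653. The neighbours DCN and LUM gave r = 0.147 and rho = 0.26, and LRRC15 and DCN gave r = -0.356 and rho = -0.322. THY1 and DCN gave r = 0.248 and rho = 0.294, and LRRC15 and LUM r = -0.0038 and rho = 0.0543. These values differ by array set. In set 2 alone r was 0.553 for THY1 and LRRC15 and 0.621 for LRRC15 and LUM, against 0.197 and -0.26 in set 1. For the pairs with DCN, r ran from -0.0171 to 0.106 in set 2 and from -0.525 to 0.341 in set 1. The THY1 and LUM rho was the only value of the 18 relations, in r or rho, with an adjusted p under 0.05. The permutations shuffled all 32 values freely although group means had been removed, which makes their p-values too small. That adjusted p of 0.035 may therefore not hold. Against the mean of 27 other fibroblast and matrix genes, r ran from 0.143 for LRRC15 to 0.24 for THY1.

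Of 37 other genes of fibroblasts and matrix, 27 were measured, and 2 were called in each comparison of 6 days of hCG. That share of the list is near the 5.04% and 6.62% of all probe sets called there. Against untreated tissue after 6 days of hCG 11 of 27 were above 0, with a median of -0.07 against 0.02 over all probe sets, and 1 rose and 1 fell. NT5E (CD73, an enzyme that makes adenosine) rose by 1.04 ± 0.27 (adjusted p 0.021). COL5A2, a fibrillar collagen chain, fell by 0.65 ± 0.18 (adjusted p 0.029). Against 1 day of hCG 10 of 27 were above 0, with a median of -0.19 against 0, and 2 fell. VCAN (versican, a large proteoglycan of loose matrix) fell by 1 ± 0.3 (adjusted p 0.039). SFRP4, a secreted inhibitor of WNT signals, fell by 0.29 ± 0.09 (adjusted p 0.045), after a rise of 0.33 ± 0.09 with 1 day of hCG (adjusted p 0.023), when 13 of 27 were above 0. COL1A1, the main chain of type I collagen, stood at 10.63 untreated, 11.01 after 1 day and 10.15 after 6 days of hCG and was not called. On day 15, 7 of the 27 were above 0 with trilostane (median -0.27, against -0.03) and 22 of 27 with R5020 added to it (median 0.42, against 0.01), and none was called. COL1A1 differed by -0.73 ± 0.4 (adjusted p 0.86) and 1.35 ± 0.3 (adjusted p 0.51) there. Without set 3 the counts were 8 and 21 of 27 (medians -0.27 and 0.54), and COL1A1 differed by -0.95 (adjusted p 0.68) and 1.5 (adjusted p 0.2). Both comparisons share the trilostane samples, and DCN lay on the other side of 0 in each.

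Of 12 other small leucine-rich proteoglycans, 8 were measured. CHAD (chondroadherin) rose by 1.05 ± 0.3 after 6 days of hCG against untreated tissue (adjusted p 0.04), and by 1.69 ± 0.33 between the days with trilostane and R5020 (adjusted p 0.0061), or by 1.14 and 1.74 without set 3 (adjusted p 0.032 and 0.0088). Of the 8, 6 were above 0 in the first comparison, with a median of 0.4. BGN (biglycan), the closest relative of decorin, differed by -0.43 ± 0.14 there (adjusted p 0.071), and OGN (osteoglycin) by 0.74 ± 0.24 (adjusted p 0.072), or by 0.82 (adjusted p 0.037) without set 3, which made 2 of 8 called. In the main fit CHAD alone of the 8 was called there, where 5.04% of all probe sets were. The share of all probe sets called without set 3 is not given here.

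Among the partners of PDGFRA, 3 of 6 ligands and other receptors were measured. PDGFB, a ligand made by endothelial cells that recruits pericytes, rose by 0.39 ± 0.11 after 6 days of hCG against untreated tissue (adjusted p 0.028) and by 0.4 ± 0.11 against 1 day of hCG (adjusted p 0.033). PDGFA and PDGFC, the other ligands measured, differed from untreated tissue by -0.11 ± 0.12 and -0.03 ± 0.13 and were not called. PDGFB alone of the 3 was called in each comparison, where 5.04% and 6.62% of all probe sets were.

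In the TGF-beta pathway, a known inducer of matrix synthesis, 14 of 19 genes were measured. Against untreated tissue 4 of 14 were above 0 after 1 day of hCG (median -0.12, against 0.03 over all probe sets) and 6 of 14 after 6 days (median -0.07, against 0.02). There was 1 call in each, near the 4.68% and 5.04% of all probe sets called there. Against 1 day of hCG, 6 days gave 12 of 14 above 0, with a median of 0.23 against 0 over all probe sets, or 10 of 14 with a median of 0.16 without set 3. The mean of the list was 9.69 untreated, 9.4 after 1 day and 9.73 after 6 days, so the day 10 hCG group was the low one. In that comparison 3 of 14 rose, where 2.88% of all probe sets were called higher. LTBP1, which holds latent TGF-beta in the matrix, rose by 1.44 ± 0.3 (adjusted p 0.0045), SMAD3, a transcription factor of the pathway, by 0.76 ± 0.2 (adjusted p 0.024), and the type I receptor TGFBR1 by 0.65 ± 0.16 (adjusted p 0.013). LTBP1 had fallen by 1.02 ± 0.3 with 1 day of hCG against untreated tissue (adjusted p 0.046), and both comparisons share the day 10 hCG samples. TGFBR3 (betaglycan) rose by 0.88 ± 0.2 after 6 days against untreated tissue (adjusted p 0.0083). LTBP1 also rose between the days with trilostane, by 2.19 ± 0.42 (adjusted p 0.0056), and with R5020 added, by 1.56 ± 0.31 (adjusted p 0.0069). With R5020 added SMAD3 rose too, by 0.92 ± 0.21 (adjusted p 0.016). Without set 3 these 3 differences were 2.08, 1.48 and 0.89 (adjusted p 0.016, 0.024 and 0.042).

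Markers of other cell types were set beside the falls of THY1 and LRRC15. After 6 days of hCG against untreated tissue, 3 of 10 measured endothelial markers were above 0 (median -0.11), and 3 of 7 of pericytes and smooth muscle (median -0.02). Of the latter, KCNJ8, a potassium channel of pericytes, fell by 0.79 ± 0.16 (adjusted p 0.0026). Macrophage markers were above 0 in 10 of 11 (median 0.37), or 8 of 11 (median 0.05) without set 3. T lymphocyte markers were above 0 in 2 of 3 (median 0.04) and those of surface epithelium in 2 of 2 (median 0.07). Of 7 luteal cell markers, 4 were above 0 (median 0.3). STAR rose by 0.3 ± 0.05 (adjusted p 0.00069), CYP17A1, an enzyme of androgen synthesis, rose by 1.99 ± 0.39 (adjusted p 0.0025), and HSD3B2, the target of trilostane, fell by 1 ± 0.28 (adjusted p 0.032). PGR, the progesterone receptor, fell by 1.05 ± 0.23 (adjusted p 0.0058). The mean of the pericyte list ran from 9.64 to 9.95 in untreated samples and from 9.54 to 9.88 after 6 days of hCG. That of the endothelial list ran from 9.57 to 10 and from 9.45 to 9.92, that of the macrophage list from 8.41 to 9.79 and from 9.29 to 9.81, and that of the luteal list from 12.09 to 12.65 and from 12.52 to 12.79. The part of these cell types in the marker falls was not tested.

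The genes whose levels followed each marker most closely were ranked by Pearson's r over the 32 samples among 9825 genes, as a description; the samples share groups and arrays. LRRC15 was followed by FSTL3, a secreted protein that binds activin (r = 0.903), then DEFB119 (0.878), FADS3 (0.875), ZCWPW1 (0.849) and MLH3 (0.849). THY1 was followed by PPIF, a mitochondrial cyclophilin (0.862), PTGDR, a receptor for prostaglandin D2 (0.861), IFT46 (0.846), H2AC6 (0.826) and KRT8 (0.824). DCN was followed by the cytokine IL15 (0.802), CFI, a regulator of complement (0.762), GIMAP2 (0.739), FPR3 (0.734) and NAIP (0.725). LUM had lower values, with DRAM1 first (0.704), then SPTBN5 (0.696), NUDT14 (0.658), POLR1H (0.658) and JHY (0.647). With group means removed, the first of each stood at 0.651 for FSTL3, 0.751 for PPIF, 0.637 for IL15 and 0.739 for DRAM1.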

How the data were processed

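The deposited values are log2 intensities per probe set of the authors; how they were background-corrected, summarized and normalized is not given in the sources used here. Of 52865 probe sets 99 controls were left out. Values were centred on each array's median (6.14 to 6.32 before), and 28867 probe sets above 6.19, the median of all values, on at least 4 arrays were tested. The fit (limma 3.58.1 in R 4.3.3: lmFit, contrasts.fit, eBayes with trend) had group and array set as terms over 32 samples, 23 residual degrees of freedom. Tests were two-sided with Benjamini-Hochberg adjustment within each of 9 comparisons, 2 differences between days and 2 comparisons added after values were seen. The number of arrays limits the precision. Lists were counted, with no set test. The members, lists and named-gene rule were chosen with earlier results of these data known. The rule names all member probe sets, up to 3 called genes per list and comparison with the smallest adjusted p, the 5 most alike genes of each marker, and STAR, HSD3B2 and PGR; COL1A1, BGN, OGN, PDGFA, PDGFC, C1QC and CSF1R are examples chosen after their values were seen. The fit was tested on simulated data. Gene symbols are those of the platform annotation. The symbols of THY1, DCN and LUM were matched to RefSeq by gene ID, and the gene ID of LRRC15 found no match there. Alternatives changed the set term, sample averaging, set 3, centring, normalization, filter, eBayes and replicate block.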

Additional observations from a re-analysis of the deposited data

Results flagged for a closer look

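In 6 of 70 groups of member values (10 tested probe sets in 7 groups, array set effect removed), 1 sample stood farther from the others than Dixon's test allows at its 95% level; chance flags about 1 in 20 groups, and probe sets of a gene are not independent. Day 15 trilostane replicate 3 had THY1 at 11.06 where the other 3 samples of its group lay between 10.24 and 10.32, and the same sample holds the group's highest LUM. Day 15 hCG replicate 2 had LRRC15 at 5.64, against 6.3 to 6.39 in the others. Day 10 hCG replicate 2 had DCN at 13.28, against 12.3 to 12.45, and at 13.11 on the probe set MmugDNA.14528.1.S1_s_at, against 12.28 to 12.4. Day 10 R5020 replicate 3 had the DCN probe set MmugDNA.22700.1.S1_at at 12.53, against 12.87 to 12.9. Untreated replicate 2 had the dimmer of the tested LUM probe sets at 9.06, against 4.18 to 6.43.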

How the results depend on the processing

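LRRC15 and THY1 kept their falls after 6 days of hCG against untreated tissue, past the threshold, in 23 of 23 settings (-2.5 to -1.91 and -0.91 to -0.57), and LRRC15 against 1 day of hCG in 19 of 19 (-2.95 to -2.47). The THY1 fall against 1 day of hCG passed in 8 of 19 and the LRRC15 fall between the days with R5020 in 11 of 19. With 1 sample left out the first ran from -0.67 to -0.47 (1 to 2 marker genes called) and the second from -2.11 to -1.61 (0 to 1 called). The cause of the changes below was not tested, except that fewer samples or more probe sets tested are part of those settings.

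THY1 against 1 day of hCG was not called, leaving 1 marker gene, without the set term (-0.56), with replicates 3 and 5 as 2 samples (-0.5), without set 3 (-0.53), with no filter (-0.56), within array set 1 (-0.53) and with the mean of the gene's probe sets (-0.59; added after the data were seen). LRRC15 between the days with R5020 was not called, leaving 0, without set 3 (-1.79) and with no filter (-1.88). Without the set term LRRC15 between the days with trilostane was called (-1.78), making 1.

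The other changes of sign concern differences that were not called. Without the set term, THY1 became 0.43 (R5020 added, day 10), 0.24 (R5020 and trilostane against hCG, day 10), 0.33 (trilostane, day 15), 0.31 (R5020 and trilostane against hCG, day 15) and -0.45 (R5020 effect, day 15 minus day 10). DCN became -0.26 (R5020 added, day 10), -0.25 (R5020 and trilostane against hCG, day 15), -0.05 (trilostane effect, day 15 minus day 10) and 0.05 (between the days with R5020), and LUM -0.45 (between the days with trilostane). With replicates 3 and 5 as 2 samples LRRC15 became -0.03 (R5020 and trilostane against hCG, day 10) and -0.04 (trilostane, day 15). Without set 3, THY1 became 0.04 (trilostane, day 15) and -0.08 (R5020 effect, day 15 minus day 10), DCN -0.01 (R5020 and trilostane against hCG, day 15) and LUM 0.02 (R5020 added, day 15), as within array set 2 (0.02). With the mean of the probe sets THY1 became 0.01 (trilostane, day 15) and -0.01 (R5020 effect), and DCN 0.04 (between the days with R5020).

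With 1 sample left out, THY1 ran from -0.17 to 0.03 (1 day of hCG), -0.28 to 0.11 (trilostane, day 15), -0.15 to 0.19 (R5020 added, day 15), -0.17 to 0.09 (R5020 and trilostane against hCG, day 15), -0.08 to 0.31 (trilostane effect) and -0.07 to 0.28 (R5020 effect). LRRC15 ran from -0.26 to 0.31 (R5020 and trilostane against hCG, day 10), -0.14 to 0.32 (trilostane, day 15) and -0.74 to 0.22 (R5020 effect). DCN ran from -0.1 to 0.25 (R5020 and trilostane against hCG, day 15) and -0.19 to 0.14 (between the days with R5020). LUM ran from -0.11 to 2.06 (6 days of hCG against untreated), -1.31 to 0.75 (trilostane, day 15), -0.76 to 0.85 (R5020 added, day 15), -1.11 to 0.58 (R5020 and trilostane against hCG, day 15), -0.48 to 1.44 and -1.02 to 0.32 (between the days with trilostane and with R5020).

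Samples share only replicate numbers: 8 of 32 correlate best with their own number, and 14 of 44 pairs exceed 0.1. With replicate number as a block THY1 and LRRC15 fell by 0.69 and 2.1 against untreated tissue and by 0.58 and 2.7 against 1 day of hCG, all called. DCN became -0.14 (R5020 added, day 10) and -0.18 (R5020 and trilostane against hCG, day 15) and LUM 0.23 and 0.06 (trilostane, and R5020 and trilostane against hCG, day 15).

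Counts of called probe sets moved by over 1.5 times without the set term (R5020 added, day 10: 128; between the days with trilostane: 3750), with replicates 3 and 5 as 2 samples (trilostane, day 15: 7), without set 3 (between the days with R5020: 336), with no filter (trilostane, days 10 and 15: 2 and 1; R5020 added, day 15: 2), with the block (trilostane, day 10, and between its days: 0 each), within array set 1 (1 day of hCG: 673; trilostane, day 10: 0) and within set 2 (between the days with R5020: 320). With 1 sample left out they ran from 837 to 1915 and 865 to 2013 for 6 days of hCG against untreated and against 1 day, and from 222 to 808 between the days with R5020. Other background corrections were not run, since scanner files were not used here.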
